A study of Mus musculus with 6 samples.

Results

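The 9 genes described here mark atrial myocardium and were measured by RNA-seq of GFP+ cardiomyocytes (CMs) sorted from young mouse hearts. They are 9 of the 23337 genes in the deposited count table, namely Sln, Bmp10, Dkk3, Stard10, Myl7, Myl4, Kcnj3, Kcna5 and Nr2f2. The genes were chosen from a textbook list of atrial-enriched genes with their levels in these libraries already known, so their values are given as a description and no test is made on them. All 9 genes passed the filter on low counts, as did 13754 genes of the table.

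Wildtype mice received AAV9-cTNT-SRF-2A-GFP (SRF-OE) or AAV9-cTNT-GFP (GFP) at postnatal day 1 (P1), and cells were collected at postnatal day 14. Both groups thus carried an AAV9 vector that makes GFP from the cTNT (cardiac troponin T) promoter, which is active in CMs, and the SRF-OE vector added serum response factor, the transcription factor encoded by Srf. The dose in both groups was 5e8 viral genomes per gram, a mosaic dose that leaves many CMs without vector, and no Cre or deleted allele was involved. The study's isolation protocol perfused the heart backwards with collagenase, dissociated the apex, which holds no atrium, and sorted GFP+ cells. The comparison asks what extra SRF does to the transcripts of maturing CMs.

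The labels list 3 biological replicates a group without saying how many hearts each holds, and 5 of the 6 libraries had counts, 2 in SRF-OE (replicates 2 and 3) and 3 in GFP. In the deposited table the first column, headed Chr, held gene symbols, and the column headed as SRF-OE replicate 1 held gene lengths in bp, so the headings do not describe their columns throughout and may be offset by 1 column. Total counts ran from 14137433 to 23159631 a library. Srf itself was 360 and 748 CPM (counts scaled to the size of the library) in SRF-OE replicates 2 and 3, 67.2 and 85.1 in GFP replicates 2 and 3, and 338 in the library labelled GFP1. The library labelled GFP1 therefore had a Srf level near that of SRF-OE replicate 2, against its label. If the headings of the count columns were offset in the same way, that library would belong to SRF-OE and the replicate numbers would move down by 1. Whether they are could not be settled from the labels, so libraries are named by their headings, and results are given with and without the library labelled GFP1. General CM genes were abundant everywhere, with 98750 to 170100 CPM summed over 12 genes, and the ventricular light chains Myl2 and Myl3 reached 4756 to 6232 and 5051 to 10600 CPM.

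Atrial and ventricular CMs use different versions of the same parts. Myl7 and Myl4 are the regulatory and essential myosin light chains of atrial muscle, the places that Myl2 and Myl3 fill in the ventricle, although Myl4 and Myl7 are also made in the embryonic ventricle and decline there as it matures. Sln (sarcolipin) inhibits the SERCA calcium pump, a part that phospholamban plays in the ventricle. Kcnj3 encodes the GIRK1 subunit of the acetylcholine-activated potassium channel, which slows the heart under vagal input, and Kcna5 encodes Kv1.5, the channel of the ultra-rapid delayed rectifier current. Nr2f2 (COUP-TFII) is a nuclear receptor that sets atrial identity, and it is also a classic factor of venous and lymphatic endothelium. Bmp10 is a secreted bone morphogenetic protein that becomes restricted to the atria after birth. Dkk3 is a secreted protein of the Dickkopf family, and Stard10 is a phospholipid transfer protein.

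The 250 bases before the start of transcription were available for 7 of the 9 genes from RefSeq (GRCm38.p6), and 3 are shown because they hold a motif searched for: the CArG box, which is the element SRF binds, or a motif of another kind of factor. For GATA factors the letters searched were GATAAG. For the box that places the start of transcription they were TATAAA, and for T-box factors of the heart they were AGGTGT. Both strands were searched, and no match shown overlaps another. Sequences run 5′ to 3′ on the gene's strand, with matches in capitals. Myl7 (chr11:5898783-5899032, minus strand) holds a CArG box at -61 to -52 and GATAAG at -41 to -36 from the start. Bmp10 (chr6:87428744-87428993, plus strand) holds GATAAG at -218 to -213, and Kcnj3 (chr2:55435720-55435969, plus strand) holds AGGTGT on the other strand, written ACACCT, at -38 to -33.
Myl7: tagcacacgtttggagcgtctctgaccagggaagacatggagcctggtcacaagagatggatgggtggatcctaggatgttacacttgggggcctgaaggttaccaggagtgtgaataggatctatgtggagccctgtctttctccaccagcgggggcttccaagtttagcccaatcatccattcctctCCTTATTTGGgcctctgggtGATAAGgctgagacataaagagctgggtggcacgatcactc
Bmp10: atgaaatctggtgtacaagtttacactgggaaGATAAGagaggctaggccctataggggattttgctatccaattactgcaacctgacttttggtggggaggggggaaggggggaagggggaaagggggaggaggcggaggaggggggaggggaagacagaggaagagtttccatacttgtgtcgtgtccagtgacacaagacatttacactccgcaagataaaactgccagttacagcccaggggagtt
Kcnj3: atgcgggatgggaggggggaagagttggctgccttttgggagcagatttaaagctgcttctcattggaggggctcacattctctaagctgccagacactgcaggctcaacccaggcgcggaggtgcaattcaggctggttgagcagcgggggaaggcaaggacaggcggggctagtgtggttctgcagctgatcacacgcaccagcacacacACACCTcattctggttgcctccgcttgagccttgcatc
A CArG box was thus found in 1 of the 7 atrial windows, GATAAG in 2, AGGTGT in 1 and TATAAA in 0. Among 32851 mouse promoter windows of the same length, 1.47% held a CArG box, 6.55% GATAAG, 11.8% AGGTGT and 12.4% TATAAA. A match of letters is not evidence of binding. The Myl4 window lies before the most upstream annotated start of that gene.

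The atrial transcripts did not move as 1 block. Sln, Bmp10 and Dkk3 were high in both libraries numbered 2, whichever vector they carried, and low or absent in the other 3. Myl7 and Myl4 were higher in both SRF-OE libraries than in any GFP library, as were 16.1% of all tested genes. Both were nearly lost in GFP replicate 3. Kcnj3 was highest in GFP replicates 2 and 3, Kcna5 and Nr2f2 were highest in SRF-OE replicate 2 and the library labelled GFP1, and Stard10 resembled the first set with a narrower range. In bulk RNA, fewer cells of a type and less RNA per cell cannot be told apart.

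**Figure D1:**
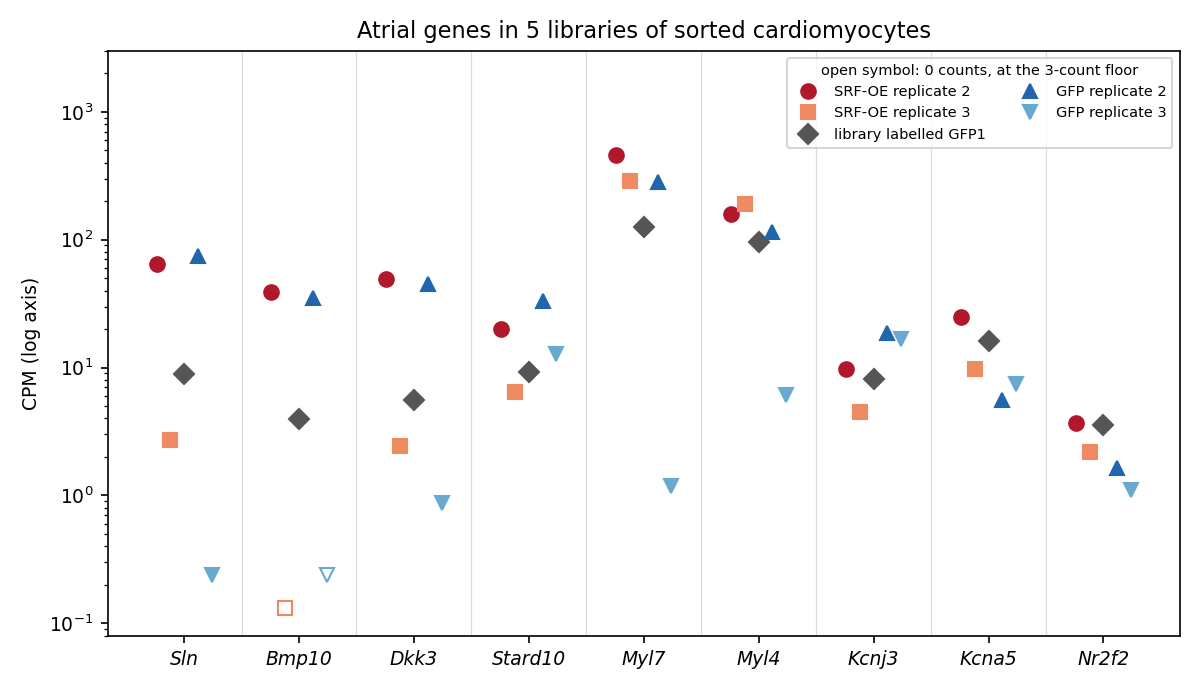
CPM on a log axis of the 9 atrial genes, with 1 symbol for each of the 5 libraries and open symbols where a gene had 0 counts, placed at the level of 3 counts. Sln runs from 0.237 to 74.0 CPM, whereas Kcnj3 runs from 4.50 to 18.5 CPM.

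Sln, on chromosome 9 (GRCm38, chr9:53850164-53854560, plus strand), was 64.8 CPM in SRF-OE replicate 2, 2.71 in SRF-OE replicate 3, 8.84 in the library labelled GFP1, 74.0 in GFP replicate 2 and 0.237 in GFP replicate 3. The groups overlapped, since each held 1 library numbered 2 with a high level. Within SRF-OE, replicate 2 had 23.9 times the Sln of replicate 3 (95% counting interval 18.5 to 31.4), and within GFP, replicate 2 had 313 times that of replicate 3 (107 to 1518), where only 3 reads were counted. Between the libraries numbered 2, SRF-OE had 0.875 times the level of GFP.

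Bmp10 (chr6:87428994-87437677, plus strand), the atrial growth factor, was 38.7 CPM in SRF-OE replicate 2, 3.99 in the library labelled GFP1 and 34.8 in GFP replicate 2. No read of Bmp10 was counted in SRF-OE replicate 3 or GFP replicate 3. A floor of 3 counts is 0.131 and 0.237 CPM there, and the exact upper 95% limits are 0.161 and 0.291 CPM. Set against that floor, Bmp10 in SRF-OE replicate 2 was 295-fold higher than in SRF-OE replicate 3. In GFP replicate 2 it was 147-fold higher than the floor of GFP replicate 3. The exact limits would give smaller ratios. The gene thus went from 669 or 759 reads in the libraries numbered 2 to none in both libraries numbered 3.

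Dkk3 (chr7:112116017-112159057, minus strand) was 49.5 CPM in SRF-OE replicate 2, 2.45 in SRF-OE replicate 3, 5.56 in the library labelled GFP1, 45.2 in GFP replicate 2 and 0.868 in GFP replicate 3. The order of the libraries by Dkk3 differed from that by Sln only in which library numbered 2 came first. Its fall between replicates 2 and 3 was 20.2 times within SRF-OE (15.4 to 27.0) and 52.0 times within GFP (29.0 to 105).

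Counted against Sln within a library, Dkk3 kept a close proportion in 4 libraries while its level ran over a wide range. It gave 0.765 reads per read of Sln in SRF-OE replicate 2, 0.903 in SRF-OE replicate 3, 0.629 in the library labelled GFP1 and 0.610 in GFP replicate 2, with 3.67 (0.969 to 20.5) in GFP replicate 3, where Sln had 3 reads. Bmp10 gave 0.597, 0.452 and 0.470 reads per read of Sln in SRF-OE replicate 2, the library labelled GFP1 and GFP replicate 2. In SRF-OE replicate 3, Bmp10 was below that proportion, at 0 with an upper 95% limit of 0.0613, and in GFP replicate 3 the limit of 2.42 was too wide to tell. Mybphl, an atrial member of the myosin-binding protein family that is not among the 9, gave 0.437, 0.339, 0.280 and 0.419 reads per read of Sln in the first 4 libraries.

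Myl7 did not keep to this proportion. It gave 7.02 reads per read of Sln in SRF-OE replicate 2, 14.1 in the library labelled GFP1, 3.83 in GFP replicate 2 and 5.0 (1.41 to 26.9) in GFP replicate 3, against 107 (83.1 to 139) in SRF-OE replicate 3. SRF-OE replicate 3, with the most Srf of the 5 libraries, therefore had abundant Myl7 with little Sln and no counted Bmp10, as the plot of counts relative to Sln shows.

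**Figure D2:**
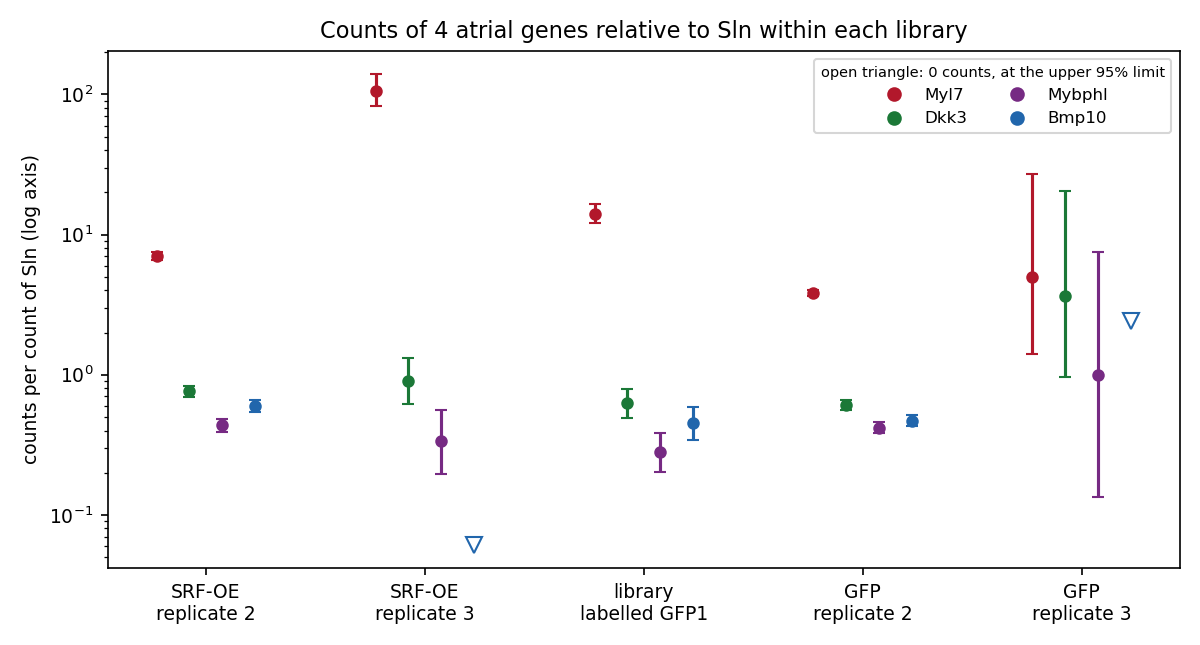
Reads of Myl7, Dkk3, Mybphl and Bmp10 per read of Sln (log axis) in each of the 5 libraries, with exact 95% intervals that cover counting error only and open triangles at the upper limit where Bmp10 had 0 counts. Dkk3 lies between 0.610 and 0.903 in 4 libraries, while Myl7 reaches 107 in SRF-OE replicate 3.

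Stard10 (chr7:101317086-101346626, plus strand) was 20.1 CPM in SRF-OE replicate 2, 6.43 in SRF-OE replicate 3, 9.22 in the library labelled GFP1, 32.9 in GFP replicate 2 and 12.7 in GFP replicate 3. Here too both libraries numbered 2 were highest, but GFP replicate 3, lowest for Sln and Dkk3, stood between them and the rest. The span from lowest to highest was far narrower than for Sln. The span of Stard10, introns included, overlaps annotated genes on both strands. Whether any reads come from these was not examined, and the strand setting of the counting is not given in the sources used here.

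Of the 9 atrial genes, 4 (Sln, Bmp10, Dkk3 and Stard10) were higher in both libraries numbered 2 than in the other 3, an ordering seen in 945 of 13754 tested genes (6.87%). Sln, Bmp10 and Dkk3 were also at least 2-fold higher in both, as were 23 of all genes tested (0.167%), a limit chosen after the values were seen. The female-specific transcript Xist, looked at for the same reason, was 147 and 88.8 CPM in the libraries numbered 2 and under 1 CPM in the other 3. The Y-linked Ddx3y, Kdm5d, Eif2s3y and Uty had 0 reads in both libraries numbered 2 and 293 or more in each of the other 3. Replicate number and sex marker expression moved together in these 5 libraries, and their part in the atrial levels cannot be told apart.

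Turning to the contractile genes, Myl7 (chr11:5896637-5898782, minus strand) was 455 CPM in SRF-OE replicate 2, 289 in SRF-OE replicate 3, 125 in the library labelled GFP1, 284 in GFP replicate 2 and 1.18 in GFP replicate 3. Both SRF-OE values lay above all GFP values, although SRF-OE replicate 3 exceeded GFP replicate 2 by only 1.02 times, with overlapping counting intervals. The group means were 372 ± 117 CPM in SRF-OE (SD, n = 2) and 137 ± 142 in GFP (SD, n = 3), so the GFP spread was as large as its mean.

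Myl4 (chr11:104550663-104595753, plus strand) was 158 CPM in SRF-OE replicate 2, 191 in SRF-OE replicate 3, 95.1 in the library labelled GFP1, 115 in GFP replicate 2 and 6.08 in GFP replicate 3. As for Myl7, the groups did not overlap and GFP replicate 3 was by far the lowest. Means were 175 ± 23.5 CPM (SD, n = 2) in SRF-OE and 72.1 ± 58.1 (SD, n = 3) in GFP. Of the 9 genes, only Myl7 and Myl4 were higher in both SRF-OE libraries than in all 3 GFP libraries, an ordering that 16.1% of all tested genes showed, and none was lower in both, against 17.3% of all tested genes. This separation rests on the headings. Were the library labelled GFP1 an SRF-OE library, its 125 CPM of Myl7 and 95.1 CPM of Myl4 would lie below the 284 and 115 CPM of GFP replicate 2, and the groups would overlap.

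The atrial light chains were measured against their ventricular counterparts, per bp of gene length. Myl7 stood at 7.84% of Myl2 in SRF-OE replicate 2, 6.53% in SRF-OE replicate 3, 2.36% in the library labelled GFP1, 5.31% in GFP replicate 2 and 0.0224% in GFP replicate 3. Myl4 stood at 1.95% and 3.85% of Myl3 in SRF-OE replicates 2 and 3, 1.34% in the library labelled GFP1, and 1.10% and 0.0583% in GFP replicates 2 and 3. Both atrial shares were small in every library and highest in an SRF-OE library, replicate 2 for Myl7 and replicate 3 for Myl4. Myl2 itself was 5739 and 5678 CPM in GFP replicates 2 and 3, so the near loss of both atrial light chains in replicate 3 came without a fall in the ventricular one.

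**Figure D3:**
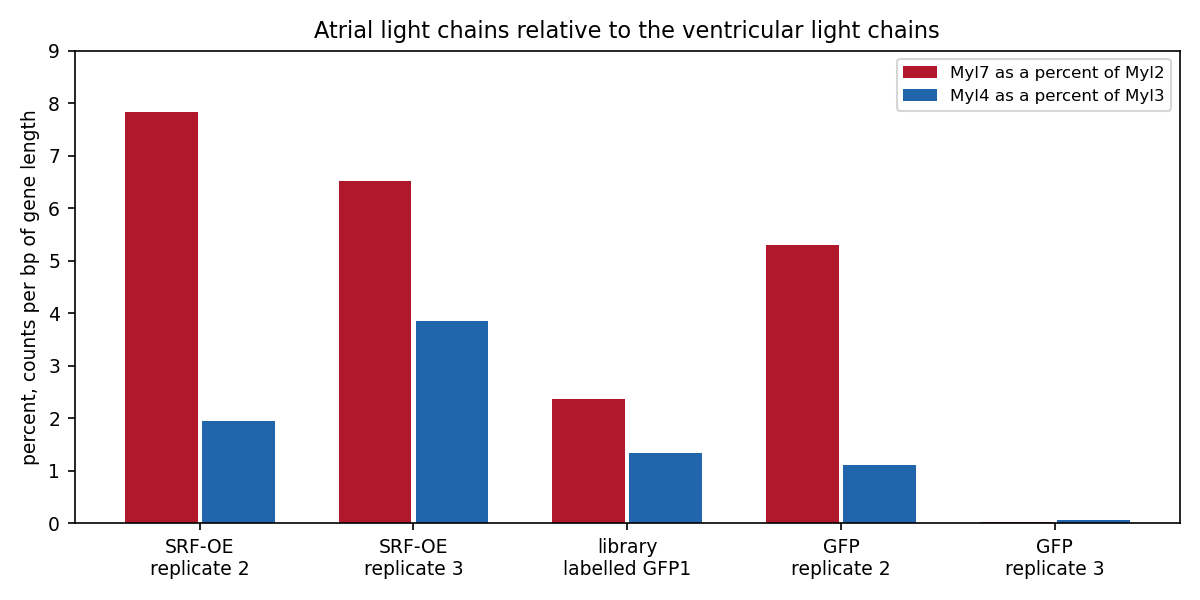
Reads per bp of Myl7 as a percent of Myl2 and of Myl4 as a percent of Myl3, as bars for each of the 5 libraries with an axis that starts at 0. GFP replicate 3 has 0.0224% and 0.0583%, bars too short to see beside 5.31% and 1.10% in GFP replicate 2.

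Myl7 and Myl4 also differed from each other. Myl7 gave 2.88 reads per read of Myl4 in SRF-OE replicate 2 and 2.46 in GFP replicate 2, against 1.51 in SRF-OE replicate 3, 1.31 in the library labelled GFP1 and 0.195 (0.104 to 0.342) in GFP replicate 3. The Myl7 share was thus larger where Sln, Bmp10 and Dkk3 were high. Nppa, the atrial natriuretic peptide gene and the closest match to Myl4, was 1641 and 1910 CPM in SRF-OE replicates 2 and 3, 683 in the library labelled GFP1, and 1196 and 177 in GFP replicates 2 and 3.

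The 2 potassium channel genes ran differently. Kcnj3 (chr2:55435970-55598145, plus strand) was 9.77 CPM in SRF-OE replicate 2, 4.50 in SRF-OE replicate 3, 8.17 in the library labelled GFP1, 18.5 in GFP replicate 2 and 16.6 in GFP replicate 3. Its levels in GFP replicates 2 and 3 had overlapping counting intervals, as had those in SRF-OE replicate 2 and the library labelled GFP1. The groups overlapped through the library labelled GFP1 alone, and with that library counted as SRF-OE they would not overlap. The share of all genes was not computed for that grouping. With the library left out, 30.2% of 13397 tested genes were lower in both SRF-OE libraries, as Kcnj3 was. A long non-coding gene overlaps Kcnj3 on the other strand, as 4 annotated genes overlap Myl4, with the same limit as for Stard10. GFP replicate 3, where Sln, Myl7 and Myl4 were lowest, was thus among the highest for Kcnj3.

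Kcnj5, which encodes GIRK4, the subunit that pairs with GIRK1 in the atrial channel, ordered the libraries in the same way as Kcnj3, with 106 and 50.9 CPM in SRF-OE replicates 2 and 3, 94.8 in the library labelled GFP1, and 213 and 167 in GFP replicates 2 and 3. Chrm2, the muscarinic receptor that opens this channel, was 47.9, 24.2, 41.1, 78.7 and 80.3 CPM in the same libraries, and was chosen for mention after its values were seen. All 3 transcripts of this pathway were lowest in SRF-OE replicate 3 and had their 2 highest levels in GFP replicates 2 and 3, the libraries with the least Srf, an ordering shared by 1968 of 13754 tested genes (14.3%), Myl3 and Irx4 among them.

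Kcna5 (chr6:126532551-126535412, minus strand) was 24.7 CPM in SRF-OE replicate 2, 9.79 in SRF-OE replicate 3, 16.2 in the library labelled GFP1, 5.55 in GFP replicate 2 and 7.50 in GFP replicate 3. It was lowest in GFP replicate 2, a library high in Sln, Bmp10 and Dkk3. Without the library labelled GFP1, both SRF-OE values of Kcna5 lay above those of GFP replicates 2 and 3, as in 30.8% of 13397 tested genes. With that library counted as SRF-OE, all SRF-OE values lay above them too, a grouping for which the share of all genes was not computed. The same held for Nr2f2 in both cases.

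Nr2f2 (chr7:70351944-70366735, minus strand) was the least abundant of the 9, with 14 to 75 reads a library. It was 3.70 CPM in SRF-OE replicate 2, 2.19 in SRF-OE replicate 3, 3.56 in the library labelled GFP1, 1.65 in GFP replicate 2 and 1.11 in GFP replicate 3. From highest to lowest the order was SRF-OE replicate 2, the library labelled GFP1, SRF-OE replicate 3, GFP replicate 2 and GFP replicate 3, and the 95% counting intervals of each library and the next overlapped. An antisense gene, B130024G19Rik, overlaps the span of Nr2f2 and was counted in the table as well. Whether they share reads was not examined, and no strand setting is stated that would tell such reads apart.

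Summed endothelial transcripts shared the top libraries with Kcna5 and Nr2f2 but not the rest of the order. The 10 endothelial markers (Pecam1, Cdh5 and others, none at 0 in any library) summed to 918 CPM in SRF-OE replicate 2, 356 in SRF-OE replicate 3, 704 in the library labelled GFP1, and 382 and 364 in GFP replicates 2 and 3. Like both atrial genes, this sum had its 2 highest values in SRF-OE replicate 2 and the library labelled GFP1. The sum was lowest in SRF-OE replicate 3, where Kcna5 and Nr2f2 were above both GFP replicates 2 and 3. Single markers differed from the sum. Flt1 and Egfl7 ordered the libraries as Nr2f2 did, and 6 of the 10 markers were lowest in GFP replicate 3, as Nr2f2 was. Kdr, Tie1 and Emcn were lowest in SRF-OE replicate 3. Fibroblast markers (8 of 8 with reads) summed to 821 CPM in SRF-OE replicate 2 and 307 to 441 in the others, leukocyte markers (6 of 6) to 29.2 and 21.6 in SRF-OE replicate 2 and the library labelled GFP1 and 10.0 to 11.6 in the others, and smooth muscle and pericyte markers (6 of 6) to 79.1 to 228. Venous and lymphatic markers (7 of 7), a class in which Nr2f2 is known to act, summed to 409 and 320 CPM in SRF-OE replicate 2 and the library labelled GFP1 and 182 to 304 in the others. Ephb4, Nrp2, Aplnr, Lyve1 and Flt4 each had their 2 highest levels in those 2 libraries, but Prox1 and Vwf did not. Prox1 was 123 and 113 CPM in GFP replicates 2 and 3 and 64.9 to 70.9 in the others. Endocardial markers (4 of 4) summed to 54.1 to 67.8 CPM, and epicardial markers (5 of the 6 listed were in the table) to 21.6 in SRF-OE replicate 2 and 4.40 to 5.37 in the others. Within the endocardial list, Npr3 ran from 3.24 CPM in GFP replicate 3 to 26.3 in SRF-OE replicate 3, while Nfatc1 ran from 20.3 to 22.8. The part of these cells in the Kcna5 and Nr2f2 values was not tested.

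**Figure D4:**
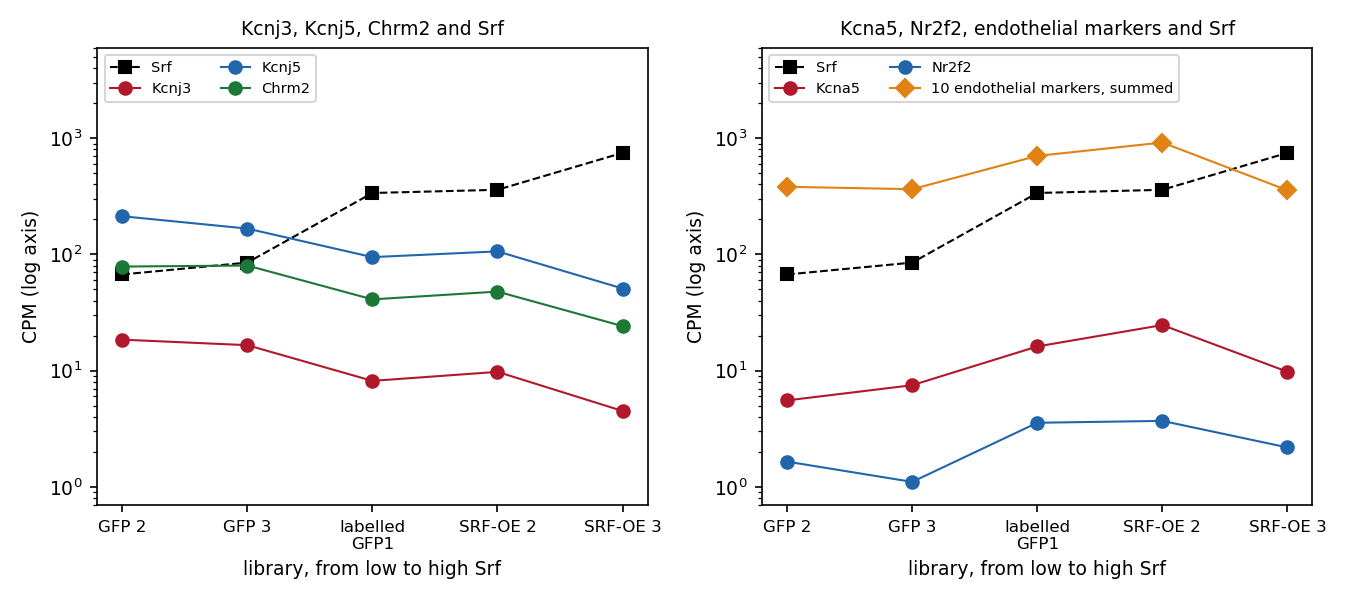
CPM on log axes in the 5 libraries ordered from low to high Srf, with Kcnj3, Kcnj5 and Chrm2 on the left, and Kcna5, Nr2f2 and the sum of 10 endothelial markers on the right. Kcnj3 is highest in the libraries with the least Srf (18.5 and 16.6 CPM), and Kcna5 peaks in SRF-OE replicate 2 (24.7 CPM) together with the endothelial sum (918 CPM).

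Per kilobase of gene length (RPKM), the order of the genes was not the same in all libraries. Myl7 led in SRF-OE replicate 2 (771 RPKM), SRF-OE replicate 3 (490), the library labelled GFP1 (211) and GFP replicate 2 (481), but in GFP replicate 3 it was 2.01 RPKM, below Stard10 (10.6), Kcnj3 (9.87), Myl4 (6.88) and Kcna5. Nr2f2 was last in SRF-OE replicate 2, the library labelled GFP1 and GFP replicate 2, at 0.760, 0.732 and 0.339 RPKM. The 9 genes together made up 824 and 508 CPM in SRF-OE replicates 2 and 3, 275 in the library labelled GFP1, and 612 and 46.3 in GFP replicates 2 and 3. Myl7 and Myl4 supplied 74.4% and 94.5% of those reads in SRF-OE replicates 2 and 3 and 15.7% in GFP replicate 3. Sln, Dkk3, Myl7, Myl4 and Nr2f2, 5 of the 9 genes, were lowest in GFP replicate 3, as were 24.4% of all tested genes, and Bmp10 was at 0 there and in SRF-OE replicate 3.

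The fitted difference between groups, SRF-OE minus GFP on the log2 scale, was 1.44 (SE 1.36) for Myl7, 1.27 (SE 0.92) for Myl4, 0.82 (SE 0.54) for Kcna5 and 0.46 (SE 0.54) for Nr2f2. For the genes that separated by replicate number, it was 0.27 (SE 1.70) for Sln, 0.55 (SE 1.98) for Bmp10 and 0.57 (SE 1.52) for Dkk3, each far smaller than its error. Kcnj3 gave -1.02 (SE 0.46) and Stard10 gave -0.47 (SE 0.67). The median over the 9 genes was 0.55, with 7 positive and 2 negative, beside 0.03 over all 13754 genes tested.

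Leaving out the library labelled GFP1 gave larger differences for the genes in which that library resembled SRF-OE, as taking it out of the GFP group had to. Kcna5 moved to 1.41 (SE 0.46), Nr2f2 to 1.06 (SE 0.44) and Kcnj3 to -1.30 (SE 0.37). Sln moved to -0.16 (SE 1.79), while Myl7 (1.38, SE 1.57) and Myl4 (1.52, SE 1.05) stayed near their first values. The median over the 9 genes fell to 0.141, with 6 positive and 3 negative, beside 0.035 over all genes tested. In these 4 libraries Myl7, Myl4, Kcna5 and Nr2f2 were higher in both SRF-OE libraries than in both GFP libraries, which 30.8% of 13397 tested genes were, and Kcnj3 was lower in both, as were 30.2%.

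**Figure D5:**
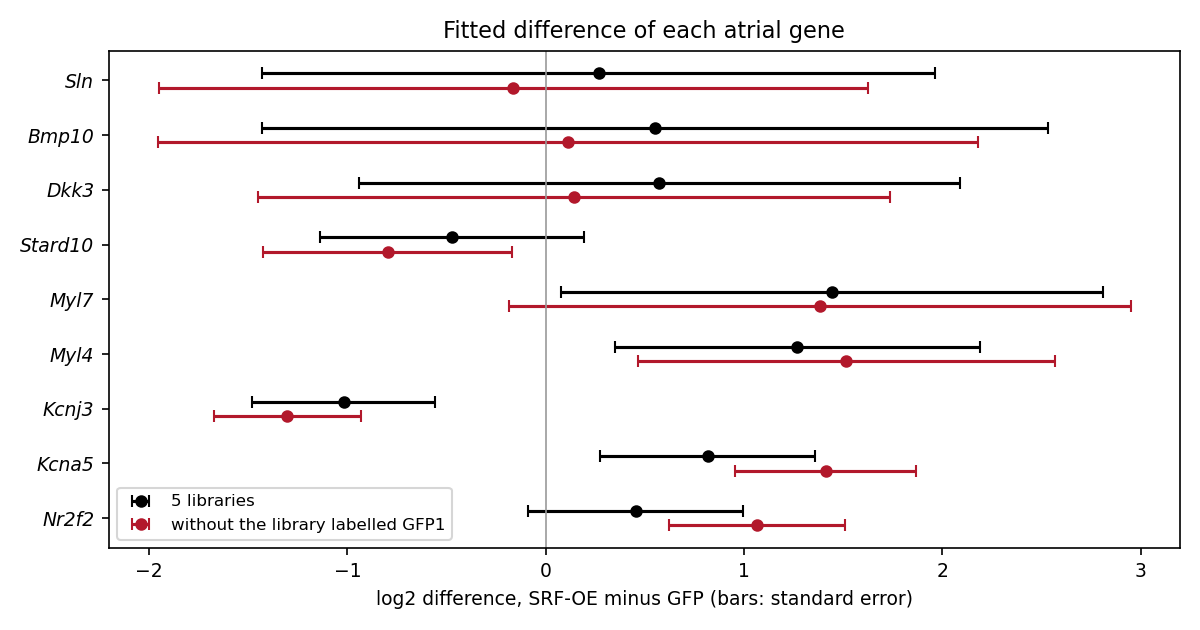
Fitted log2 difference, SRF-OE minus GFP, of each of the 9 atrial genes with its standard error, from 5 libraries in black and without the library labelled GFP1 in red. The errors of Sln, Bmp10 and Dkk3 exceed 1.5 on the log2 scale, whereas Kcnj3 lies at -1.02 (SE 0.46) and -1.30 (SE 0.37).

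Comparing only libraries of the same number, the ratio of SRF-OE to GFP was 1.60 in the libraries numbered 2 and 244 in those numbered 3 for Myl7, and 1.37 and 31.4 for Myl4. The large ratios come from the near absence of both transcripts in GFP replicate 3. Kcnj3 gave 0.529 and 0.272, Nr2f2 2.24 and 1.98, Kcna5 4.45 and 1.31, and Stard10 0.611 and 0.506. Sln gave 0.875 and 11.5 and Dkk3 1.10 and 2.82, so Sln alone of these 8 genes lay on different sides of 1.

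Single libraries set the sign of several of these values. Without SRF-OE replicate 2, Sln moved to -3.37 and Dkk3 to -2.83, and in the fits that each left out 1 library Sln reached 2.83 and Dkk3 2.95. Myl7, Myl4, Kcnj3, Kcna5 and Nr2f2 kept their sign in all 5 such fits. The range was 0.87 to 2.56 for Myl7 and 0.73 to 1.78 for Myl4, with the lowest value without GFP replicate 3, and it was -1.68 to -0.57 for Kcnj3. Without SRF-OE replicate 2, Kcna5 came to 0.00 and Nr2f2 to 0.03.

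Genes most like each atrial gene were sought among 8523 genes of at least 10 CPM, by the root mean square distance between log2 CPM profiles centred over the 5 libraries. Kcnj3 had by far the nearest neighbours, with Corin, the protease that activates atrial natriuretic peptide, at 0.0267, followed by Gsg1l, Ces1d, Sh2d4a and Cyp4b1 at up to 0.0522. Corin was 138 and 66.3 CPM in SRF-OE replicates 2 and 3, 118 in the library labelled GFP1, and 272 and 234 in GFP replicates 2 and 3. For Kcna5 the nearest were C1qtnf1 (0.111), Pcdh17, 1810011O10Rik, Id1 and Sparcl1, and for Stard10 Gm19277 (0.183), Scd4, Asb4, Epha4 and Ramp1.

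The other atrial genes had more distant neighbours by this measure, which is not scaled to how widely a gene varied. Their root mean square spread around their own mean ran from 1.819 for Myl4 to 4.675 for Bmp10. It was 0.737 for Kcnj3, 0.769 for Kcna5 and 0.828 for Stard10, so these distances are not directly comparable with those above. Mybphl was the nearest to both Sln (0.624) and Dkk3 (0.416), at 28.3 and 0.918 CPM in SRF-OE replicates 2 and 3, 2.47 in the library labelled GFP1, and 31.0 and 0.237 in GFP replicates 2 and 3. Sln was followed by Dkk3, Myl7, Myl4 and Xist, and Dkk3 by Sln, Scd4, Mest and Tnni1. Bmp10 was nearest to Sln (2.32), then to Mybphl, Dkk3, Xist and Myl7, at distances that depend on the prior count because it had 0 reads in 2 libraries. Myl7 was nearest to Myl4 (1.38), then to Sln, Nppa, Dkk3 and Tmsb10, and Myl4 to Nppa (0.681), Tmsb10, Tnni1, Pcbd1 and Mxra7. Nr2f2 was below the level required.

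The 14 other atrial-enriched genes examined showed the same mixture. By edgeR's quasi-likelihood test over all genes, 0 of the 14 passed an adjusted p of 0.05 with 5 libraries, where 0% of all genes did, and 1 had an unadjusted p under 0.05, as had 13.9% of all genes. DESeq2, which gave an adjusted p for 3 of the 14, called 0. The log2 difference was 1.37 (SE 0.66, adjusted p = 0.388) for Nppa, -1.01 (SE 0.42, adjusted p = 0.359) for Kcnj5 and 0.35 (SE 1.68, adjusted p = 0.932) for Mybphl in edgeR, and the median of the list was 0.20, with 8 positive and 6 negative. In the 4-library fit, edgeR called 0 of these genes, where 2.95% of all genes passed, and 6 had an unadjusted p under 0.05, beside 28.3%. The median of the list changed sign there, to -0.115, with 6 positive and 8 negative. Mybphl was highest in both libraries numbered 2, as Sln was, and so were Sbk2, Gja5, Tbx5 and Fgf12, which were named after their values were seen. Of all tested genes, 6.87% had this ordering. Mybphl, Sbk2 and Fgf12 were at least 2-fold higher there than in the other libraries, but Gja5 and Tbx5 were not. Tbx5 was 35.9 CPM in SRF-OE replicate 2 and 35.5 in GFP replicate 3, with overlapping counting intervals.

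Ventricular-enriched genes gave 0 of 10 called in edgeR with 5 libraries and 3 with an unadjusted p under 0.05, with a median log2 difference of -0.64, 2 positive and 8 negative. The 12 general CM genes, which are no chamber markers, had a median of -0.42, 1 positive and 11 negative. Of these, edgeR called 0, and 1 had an unadjusted p under 0.05. DESeq2 called 3 of the 11 general CM genes it gave an adjusted p for, all lower. It called 2 of 5 such ventricular-enriched genes, Fhl2 and Pln, both lower in SRF-OE. Of all 1167 genes with an adjusted p in that tool, 19.2% were called, 213 lower and 11 higher. In edgeR, Irx4, a ventricular transcription factor, was at -0.88 (SE 0.40, adjusted p = 0.372), Myl2 at -0.05 (SE 0.23, adjusted p = 0.926) and Myl3 at -0.51 (SE 0.33, adjusted p = 0.481). Without the library labelled GFP1, edgeR called 1 of the 10, Kcnj2, an inward rectifier channel, which fell by 1.18 on the log2 scale (SE 0.20, adjusted p = 0.04965), beside 0.97% of all genes called lower there. Among the cell type markers, that fit called Ddr2 (fibroblast, adjusted p = 0.0423) higher. It also called Tagln (smooth muscle), Npr3 (endocardial) and Tnnt3 (skeletal muscle) higher and Prox1 (venous and lymphatic) lower, each at an adjusted p of 0.0473. Over all genes, 2.95% were called in either direction.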

How the data were processed

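GFP+ CMs were sorted and poly(A) RNA was amplified with a SMART-Seq kit and sequenced. Per the labels, the authors aligned reads to mm10 (STAR 2.5.3a) and counted them per gene with featureCounts of Subread 1.5.2, and CASAVA 1.8 is also named. They deposited raw counts without normalization. The settings for strand and multiply mapped reads are not given in the sources used here. The gene lengths deposited in bp, under the heading of SRF-OE replicate 1, lay within 5% of an annotated transcript length for 72.1% of 20929 genes. The design, written for 6 libraries, could use 5, with 0 other columns of values left unused. Libraries were grouped by label alone.

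Counts were tested with edgeR 4.0.16 (R 4.3.3), using filterByExpr, TMM factors and glmQLFTest, with Benjamini-Hochberg adjustment over all tested genes and a cutoff of 0.05. A standard error is the log2 difference divided by the square root of F. CPM use TMM-scaled library sizes, RPKM divides them by the deposited length, and log2 profiles use a prior count of 0.5. DESeq2 1.42.0, a count minimum of 10, no filter, edgeR with upper quartile factors or the size factors of DESeq2, a replicate block, and leaving out each library were tried. The edgeR fit was tested on simulated counts with a log2 change of 2, and recovered 74.8% of changed genes with 5 libraries and 83.2% with 4. Of its calls there, 5.38% and 9.76% were false, so calls from 4 libraries exceeded the error that the cutoff sets. A floor of 3 counts corresponds to 0.131 to 0.237 CPM. Exact 95% intervals (SciPy 1.17.1) cover counting error only. The smallest exact permutation p of 2 against 3 libraries is 0.1, and p-values measure the spread between these libraries only.

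The members and lists were chosen with earlier results of these data known. All 9 genes are named in every library. Of other lists, genes past the edgeR cutoff with or without GFP1 are named, and always Nppa, Mybphl, Kcnj5, Myl2, Myl3, Irx4 and Srf, and for each of the 9 with a mean of 10 CPM or more, the 5 nearest genes. Any other gene was named after its values were seen. Positions are GRCm38 (GENCODE M21).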

Additional observations from a re-analysis of the deposited data

How the results depend on the processing

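Genes called over the whole table depended on the model. edgeR called 0 with 5 libraries and 0 to 395 in the fits that left out a GFP library, the 395 coming without the library labelled GFP1. DESeq2 called 224 of the 1167 genes it gave an adjusted p for. The replicate block, which pairs libraries of the same number, called 1014 of 13754 genes. Further settings, both on 4 libraries, were added after seeing the data. Without the library labelled GFP1 the block called 939 of 13397 genes and DESeq2 1685 of 13559. The counts for the lists below stand beside these totals. Of the 14 other atrial-enriched genes, 0 were called at first, 3 with the block with 5 or 4 libraries (with 5, Chrm2 and Kcnj5 lower and Pam higher, the adjusted p of Kcnj5 being 0.0202), and 4 by DESeq2 with 4 libraries. Of the 10 ventricular-enriched genes, 0 were called at first, 2 by DESeq2, 3 with the block (Irx4, adjusted p 0.0472, Kcnip2 and Kcnj2, all lower), 2 with the block on 4 libraries, 6 by DESeq2 on 4 libraries, and 0 to 1 in the fits without 1 GFP library. Only 2 pairs share a number, and same-numbered libraries deviated together for number 2 (correlation 0.363) but not for number 3 (-0.048), so the number is not taken as a pairing. With 1 SRF-OE library left, no calls were made.

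The median difference of the 9 atrial genes was 0.55, -1.52 to 1.78 when 1 library was left out, 0.49 with the block, and -0.43 with both libraries numbered 2 left out, a setting added after seeing the data. Signs of single genes were kept in 52 of 52 values under other filters, scalings, DESeq2 and the replicate block on 5 libraries and in 37 of 45 values when 1 library was left out. Bmp10 has 0 counts in 2 libraries, so its fitted value without SRF-OE replicate 2 depends on the prior count and is not given. Depth limits Nr2f2, with 14 to 75 reads, and Sln in GFP replicate 3, with 3.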
